A study of Mus musculus with 8 samples.

Results

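The 9 genes described are known as identity genes of hypothalamic and other diencephalic neurons and were measured in the ventral pallidum (VP): the transcription factor genes Sim1, Otp, Lhx5, Lhx9, Barhl2, Tcf7l2 and Foxp2 and the neuropeptide genes Hcrt and Pmch. They were taken by symbol from the deposited table, in which all 9 of the 9 genes had a row, among 14353 genes in all. The mice were a cross of vGluT2-Cre with RiboTag, in which Cre, driven from the vGluT2 gene Slc17a6, switches the ribosomal protein Rpl22 to a form that carries a hemagglutinin (HA) tag. TRAP is the mRNA bound to the tagged ribosomes, collected with an antibody against HA, and INPUT is the mRNA of all cells of the same lysate. The 8 libraries are 1 TRAP and 1 INPUT library from each of 4 tissue pools, named VP1.6, VP2.2, VP2.6 and, as the last, VP2.11.

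Both fractions share every feature of the animals: homozygous for VGluT2-Cre, heterozygous for the tagged Rpl22, no treatment, males and females mixed. The mice of VP1.6 were 9 to 12 weeks old and those of the other pools 10 to 16 weeks, and a pool held tissue of 7 to 11 mice, 38 mice in all by the labels, whose totals are used here although the methods state larger numbers of samples and mice and a narrower age range. Because animals were pooled, no value belongs to 1 mouse. The tag marks any cell with Cre, also one that used the promoter only earlier in life. The dissection was described as keeping clear of the lateral hypothalamus and the substantia innominata. The paper allows that neighbouring striatum or nucleus accumbens may have entered the tissue, and states that these areas do not express vGluT2. In such bulk samples a change in the number of cells that express a gene and a change in its mRNA per cell cannot be told apart.

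The hypothalamus and thalamus arise from the diencephalon, where sets of transcription factors divide the tissue into territories and set neuron types. Sim1 and Otp are both needed for the neuroendocrine neurons of the paraventricular and supraoptic nuclei. The LIM-homeodomain genes Lhx5 and Lhx9 and the BarH-like gene Barhl2 pattern diencephalic regions, Tcf7l2 is a Wnt effector long used as a marker of the thalamus and habenula, and orexin and melanin-concentrating hormone (MCH) are peptides of lateral hypothalamic neurons that act on arousal and feeding.

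Slc17a6, which encodes vGluT2, was higher in TRAP with a log2 fold change of 2.55 (standard error 0.25). Of the other glutamatergic markers, Slc17a7 was called higher (1.45), with and without a term for the pool, and Slc17a8 (-0.03) was not called. Slc32a1, which encodes the vesicular GABA transporter, was lower at -1.26. The other GABAergic markers, Gad1 (0.30) and Gad2 (-0.05), were not called. Of the cholinergic markers Slc18a3 was lower (-1.75), Chat (0.70) was called higher in the fit without a pool term only, and Slc5a7 (0.81) was not called. Astrocyte and oligodendrocyte markers had 4 of 5 genes each lower in TRAP and striatal projection neuron markers 4 of 5, with and without a term for the pool. The remaining oligodendrocyte marker, Mag, was called higher (0.61) without that term only. The remaining astrocyte and striatal markers, Aldh1l1 (-0.27) and Rgs9 (-0.06), were not called. Microglia markers had 5 of 5 lower without that term and 3 of 5 with it. Of 5 endothelial markers, Cldn5 and Tek had no row. Flt1 was called higher in TRAP (2.37) with and without the pool term, and Pecam1 (0.59) and Cdh5 (0.91) were not called. The summed level of Flt1, Pecam1 and Cdh5 ran from 6.85 to 37.5 CPM in TRAP against 2.34 to 6.53 CPM in INPUT, with VP2.11 at a median difference of 3.70 on the log2 scale. The TRAP library of VP2.11 stood somewhat apart, since its Pearson's r with the average of the remaining TRAP libraries, taken across genes, was 0.939 against 0.972 to 0.976 for the others. In VP2.11, 11.4% of genes had a TRAP minus INPUT difference of the opposite sign to all of the other 3 pools, against 5.79% to 11% when another pool was set against the rest. The 2 libraries of a pool are not independent of each other, because their deviations from the fraction means were opposed (a mean r of -0.661 across genes). Whole-read steps in the low values gave library sizes of about 13.6 M reads in TRAP VP2.2, 41.0 M in INPUT VP2.2, 13.0 M in TRAP VP2.6 and 25.9 M in INPUT VP2.6, and the depth of the other pools is unknown.

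Of the 9 genes, 5 (Sim1, Otp, Lhx5, Lhx9 and Tcf7l2) were higher in TRAP than in INPUT, and 0 were lower. A gene was called where limma's Benjamini-Hochberg adjusted p over 14249 genes was under 0.05. The same 5 genes were called in the plain fit, which has the fraction alone, and in the pool-blocked fit, which has the pool as a block. Of all genes, the plain fit called 23.2% higher and 24.8% lower, and the pool-blocked fit 15.4% and 16.8%. At an unadjusted p under 0.05, limma placed 6 of the 9 genes higher in the plain fit and 5 in the pool-blocked fit, and 0 lower in either. The 9 genes had a median log2 fold change of 1.31, beside -0.05 for all genes tested. Without VP2.11, 7 of the 9 were higher in the plain fit and 6 in the pool-blocked fit, and Foxp2 was lower in the plain fit only. Without VP1.6, VP2.2 or VP2.6, the numbers higher were 5, 5 and 5 in the plain fit and 5, 5 and 4 in the pool-blocked fit. The shares of all genes called with a pool left out, or at an unadjusted p under 0.05, were not counted.

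**Figure D1:**
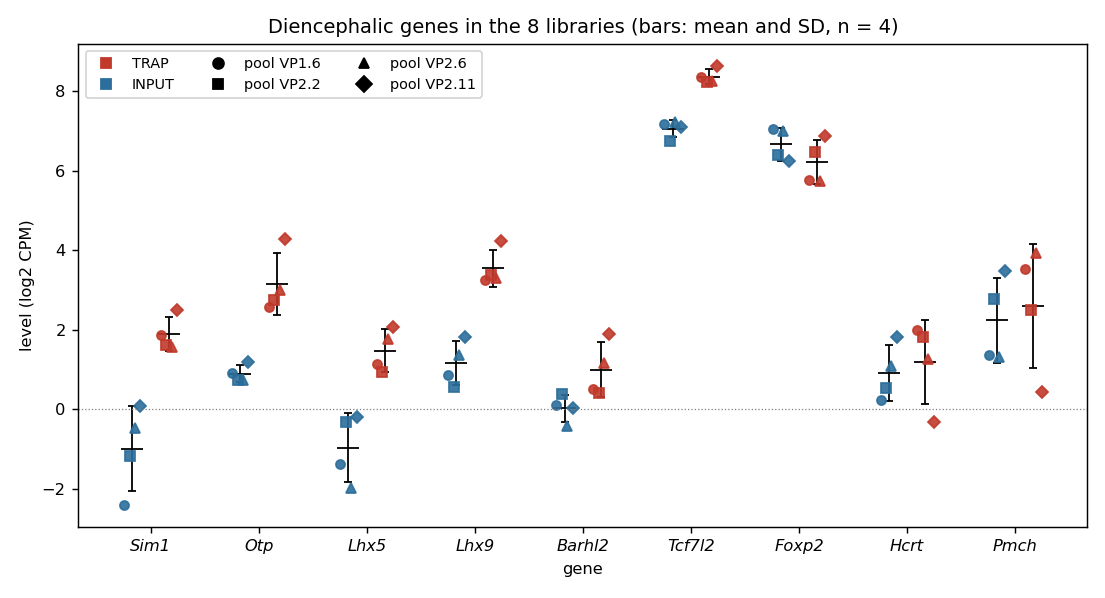
Level of each gene in log2 CPM (y axis) in the 4 TRAP (red) and 4 INPUT (blue) libraries, with the pool shown by the marker shape and the mean and SD (n = 4) as bars. The TRAP and INPUT points lie apart for Sim1, Otp, Lhx5, Lhx9, Barhl2 and Tcf7l2 and overlap for Foxp2, Hcrt and Pmch.

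Sim1 encodes a basic helix-loop-helix PAS factor and lies on chromosome 10 of GRCm38 from 50894754 to 50989152 on the plus strand. From here on the 4 values of a fraction are given in the order VP1.6, VP2.2, VP2.6, then VP2.11, and paired errors and p-values are given first for the plain fit and then for the pool-blocked fit. Its level was 1.88, 1.61, 1.56 and 2.49 log2 CPM in TRAP and -2.40, -1.16, -0.48 and 0.09 log2 CPM in INPUT. Every TRAP library lay above every INPUT library, and the means were 3.82 ± 1.24 CPM in TRAP and 0.604 ± 0.374 CPM in INPUT (SD, n = 4). The mean difference of the log2 levels, the log2 fold change, was 2.87 (standard errors 0.53 and 0.63), for which limma gave adjusted p-values of 0.0016 and 0.0034. The gap was 4.28 in VP1.6, where INPUT was lowest, and 2.04 to 2.77 in the other pools. At these levels Sim1 rests on few reads, about 18 in INPUT VP2.2 and 19 in INPUT VP2.6.

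Otp, a homeobox gene of the same neuroendocrine lineages, lies on chromosome 13 from 94875602 to 94885130 on the plus strand. It stood at 2.56, 2.75, 3.00 and 4.27 log2 CPM in TRAP and at 0.92, 0.73, 0.74 and 1.18 in INPUT. The INPUT libraries lay close together, whereas TRAP VP2.11 was above the other TRAP libraries, with means of 9.98 ± 6.27 CPM and 1.87 ± 0.283 CPM. Otp was higher in TRAP by 2.25 on the log2 scale (standard errors 0.36 and 0.40), with adjusted p-values of 7.2e-04 and 8.7e-04 in limma. The within-pool differences lay between 1.64 (VP1.6) and 3.09 (VP2.11).

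Lhx9, a LIM-homeodomain gene of the developing thalamus and the lateral hypothalamus, lies on chromosome 1 from 138825186 to 138848577 on the minus strand. Its levels were 3.25, 3.38, 3.29 and 4.24 log2 CPM in TRAP and 0.87, 0.57, 1.37 and 1.83 log2 CPM in INPUT. VP2.11 was the highest library in each fraction, so the difference within that pool, 2.41, lay among the other pools' 1.92 to 2.81. Lhx9 averaged 12.2 ± 4.51 CPM in TRAP and 2.36 ± 0.916 CPM in INPUT. It was higher in TRAP by 2.38 on the log2 scale (standard errors 0.33 and 0.35), with adjusted p-values of 3.5e-04 and 2.7e-04 in limma.

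Lhx5, a LIM-homeodomain gene of the mammillary region, lies on chromosome 5 from 120431699 to 120441223 on the plus strand. It measured 1.13, 0.94, 1.78 and 2.06 log2 CPM in TRAP and -1.38, -0.31, -1.97 and -0.19 log2 CPM in INPUT. No INPUT library reached the lowest TRAP library, and the means were 2.93 ± 1.06 CPM and 0.581 ± 0.308 CPM. Lhx5 was higher in TRAP by 2.44 on the log2 scale (standard errors 0.50 and 0.67), with adjusted p-values of 0.0027 and 0.012 in limma. The difference ran from 1.25 in VP2.2 to 3.75 in VP2.6, and INPUT VP2.6 held only about 7 reads of the gene. Without VP2.6 the change was 2.00, and the pool-blocked fit in limma no longer called it (adjusted p 0.079). An antisense gene, Gm27199, shares 69 bp (2.57%) of its exons, and the counting was not described as using strand, so reads there may have been left out.

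Barhl2, a BarH-like homeobox gene of the developing diencephalon, lies on chromosome 5 from 106452523 to 106458166 on the minus strand. Its TRAP levels were 0.52, 0.41, 1.17 and 1.90 log2 CPM, and its INPUT levels 0.12, 0.38, -0.43 and 0.03 log2 CPM. All TRAP libraries were above all INPUT libraries, though by only 0.03 in VP2.2 and 0.40 in VP1.6 within the pool, against 1.6 in VP2.6 and 1.87 in VP2.11. In VP2.2 the gene had about 18 reads in TRAP and 53 in INPUT. The means were 2.19 ± 1.11 CPM in TRAP and 1.04 ± 0.230 CPM in INPUT. The log2 fold change of 0.97 (standard errors 0.41 and 0.61) did not pass, with adjusted p-values of 0.072 and 0.24 in limma. It did pass in the plain fit with quantile normalization, with library weights or with the trend on exon length taken out, at 1.07 to 1.91.

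Tcf7l2 (chromosome 19, 55741820 to 55933654, plus strand) was the most abundant of the 9 genes per kilobase of exon in TRAP. It stood at 8.36, 8.22, 8.24 and 8.63 log2 CPM in TRAP and at 7.17, 6.74, 7.21 and 7.09 log2 CPM in INPUT. The pools were close to each other, with differences of 1.03 to 1.54, and the means were 332 ± 44.9 CPM and 134 ± 18.5 CPM. Tcf7l2 was higher in TRAP by 1.31 on the log2 scale (standard errors 0.15 and 0.21), with adjusted p-values of 1.5e-04 and 4.8e-04 in limma.

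Foxp2, a forkhead gene of many neuron types including thalamic ones, lies on chromosome 6 from 14901349 to 15441977 on the plus strand. Its levels were 5.76, 6.47, 5.74 and 6.86 log2 CPM in TRAP and 7.04, 6.39, 6.99 and 6.23 log2 CPM in INPUT. The fractions overlapped and the pools split, with differences of -1.28 in VP1.6 and -1.26 in VP2.6, near 0 (0.08) in VP2.2 and 0.63 in VP2.11. The means were 78.0 ± 30.2 CPM in TRAP and 104.5 ± 29.2 CPM in INPUT. The log2 fold change of -0.46 (standard errors 0.28 and 0.30) had adjusted p-values of 0.20 and 0.26 in limma. Without VP2.11 it was -0.82, and limma's adjusted p-values were 0.036 and 0.061. With all pools it was lower in TRAP in both fits once library weights were used (-0.95 and -0.87) or the trend on exon length was taken out.

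**Figure D2:**
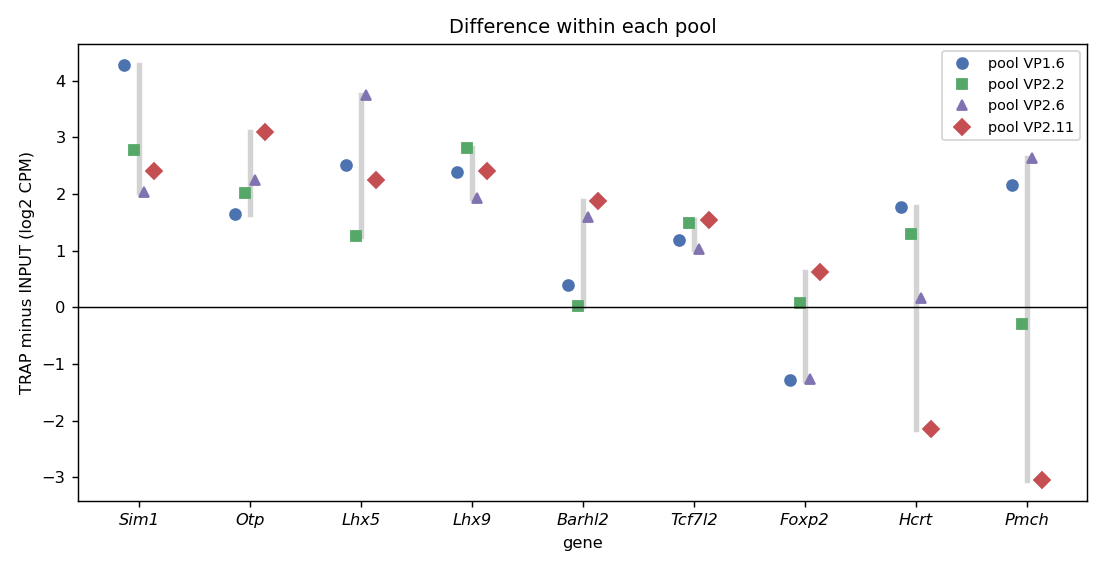
TRAP minus INPUT in log2 CPM (y axis) for each gene within each of the 4 pools (marker shape and colour), with a grey line over their range. Tcf7l2 and Lhx9 have the narrowest ranges, 1.03 to 1.54 and 1.92 to 2.81, and Pmch the widest, -3.05 to 2.63.

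For a single gene, the exact two-sided permutation test of 4 TRAP against 4 INPUT libraries gave p = 0.029, the smallest p that this design allows, for each of the 6 genes without overlap between fractions, Barhl2 included. This test ignores the pools, and the exact paired test over sign flips of the 4 within-pool differences gave p = 0.125, its smallest, for the same 6 genes, so it could not pass. How many of all genes had no overlap between fractions was not counted, so the number 6 cannot be set against a share of all genes. The exact p of the permutation test was 0.66 for Hcrt, 0.71 for Pmch and 0.26 for Foxp2.

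The neuropeptide genes were not called and varied widely between pools. Hcrt, which encodes the orexin precursor, lies on chromosome 11 from 100761069 to 100762931 on the minus strand, and Pmch, which encodes the precursor of MCH, on chromosome 10 from 88091072 to 88092375 on the plus strand. The 250 bases before each start site, from RefSeq (GRCm38.p6), are shown for the 2 peptide genes, whose levels split by pool, and for Barhl2, the only one of the 7 genes with an entry whose window held no match. Capitals mark matches on either strand to TAAT, the core of homeodomain sites, to CTTTGA, a TCF/LEF core, and to TATAAA, and a match says nothing of binding.

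Hcrt, chr11:100762932-100763181, minus strand: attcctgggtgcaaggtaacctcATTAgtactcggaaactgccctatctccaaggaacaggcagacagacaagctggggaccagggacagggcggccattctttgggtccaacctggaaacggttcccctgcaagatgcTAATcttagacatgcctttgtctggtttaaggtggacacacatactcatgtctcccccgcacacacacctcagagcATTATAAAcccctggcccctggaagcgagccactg
Pmch, chr10:88090822-88091071, plus strand: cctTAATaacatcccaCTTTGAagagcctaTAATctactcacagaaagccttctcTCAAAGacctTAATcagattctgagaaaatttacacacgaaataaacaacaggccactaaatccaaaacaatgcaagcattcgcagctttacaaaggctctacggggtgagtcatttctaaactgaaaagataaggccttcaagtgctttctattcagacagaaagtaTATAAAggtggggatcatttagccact
Barhl2, chr5:106458167-106458416, minus strand: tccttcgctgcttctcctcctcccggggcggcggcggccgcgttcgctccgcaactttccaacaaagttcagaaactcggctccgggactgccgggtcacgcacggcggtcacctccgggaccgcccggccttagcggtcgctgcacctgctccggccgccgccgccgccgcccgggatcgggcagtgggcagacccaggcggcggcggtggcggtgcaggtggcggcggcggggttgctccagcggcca

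The Hcrt window held TATAAA 33 bases before the start and TAAT at 227, 111 and 35 bases, the last overlapping TATAAA. The Pmch window held TATAAA at 27 bases, TAAT at 247, 220 and 185 bases and CTTTGA at 234 and 195 bases. The Barhl2 window held none of the 3, but it does not stand for the transcription factor genes. The windows of Sim1, Otp and Lhx9 held TAAT 3, 2 and 2 times, and that of Sim1 also held TATAAA. Tcf7l2 had 2 windows, starting at 55741560 and 55895071 on chromosome 19, which together held TAAT 4 times. Only the second of these windows held TATAAA. Of 32851 promoters of this length in the table, 12.4% held TATAAA, 54.9% TAAT and 13.8% CTTTGA, and 7 of the 9 genes matched an entry by symbol. TAATTA (4.84% of promoters), ACGTG (16.6%) and TGTTTAC (3.17%) were also searched, with no match in these 3 windows. GC content was 53.6% for Hcrt, 38.4% for Pmch and 74.8% for Barhl2.

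Hcrt stood at 1.99, 1.82, 1.26 and -0.32 log2 CPM in TRAP and at 0.23, 0.53, 1.09 and 1.83 log2 CPM in INPUT. It was higher in TRAP in VP1.6, VP2.2 and VP2.6, by 1.77, 1.29 and 0.17, and lower by -2.15 in VP2.11. The means of 2.68 ± 1.42 CPM in TRAP and 2.08 ± 1.07 CPM in INPUT differed by less than their spread. Hcrt rests on few reads, about 48 in TRAP and 59 in INPUT of VP2.2, and 31 and 55 in VP2.6. Its level in TRAP VP2.11, a library of unknown depth, was 0.799 CPM. On the log2 scale Hcrt differed by 0.27 (standard errors 0.54 and 0.63), with adjusted p-values of 0.70 and 0.78 in limma. Without VP2.11 it differed by 1.07, and limma's adjusted p-values were 0.030 and 0.15, so it passed in the plain fit only. With all pools and the trend on exon length taken out, Hcrt differed by 1.09, with adjusted p-values of 0.20 and 0.25 in limma.

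Pmch showed a similar split in VP2.11, at 3.53, 2.49, 3.93 and 0.43 log2 CPM in TRAP and 1.37, 2.78, 1.31 and 3.48 log2 CPM in INPUT. TRAP VP2.11 was the lowest TRAP library and INPUT VP2.11 the highest INPUT library. The differences were 2.16 in VP1.6 and 2.63 in VP2.6 but -0.29 in VP2.2 and -3.05 in VP2.11, around a log2 fold change of 0.36 (standard errors 0.74 and 0.68) with adjusted p-values of 0.71 and 0.72 in limma. The means were 8.45 ± 6.19 CPM in TRAP and 5.77 ± 4.13 CPM in INPUT. Without VP2.11 the change was 1.50, with adjusted p-values of 0.042 and 0.039 in limma, and library weights with all pools gave 1.64 in the plain fit, also past the threshold. With all pools and the trend on exon length taken out, Pmch differed by 1.18, with adjusted p-values of 0.24 and 0.22 in limma. Over 435 bp (58.08%) the exons of Pmch overlap those of Parpbp, a protein-coding gene on the opposite strand. The methods describe counting only unambiguous reads, so without strand reads of the overlap would be left out and the level of Pmch per kilobase would be too low.

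Set against the mean of the other 3 pools, the difference in VP2.11 was lower by -4.54 for Pmch and by -3.23 for Hcrt. Of 14249 genes, 32 (0.225%) had a gap as low as that of Pmch and 140 (0.983%) one as low as that of Hcrt. The gap was 1.45 for Foxp2, 1.19 for Barhl2 and 1.12 for Otp, and between -0.63 and 0.31 for the others. In the same pool Slc17a6 differed least between fractions, by 1.84 against 2.40 to 3.17 elsewhere. The 3 endothelial markers with a row had a median difference of 3.70 there, against 1.92 in VP1.6, 0.91 in VP2.2 and -0.34 in VP2.6. In VP2.11 and VP1.6, Flt1 differed by 3.81 and 3.65, Pecam1 by 2.24 and 1.92, and Cdh5 by 3.71 and 0.26. Whether what lay behind the Slc17a6 or the endothelial values moved the peptide genes was not tested.

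**Figure D3:**
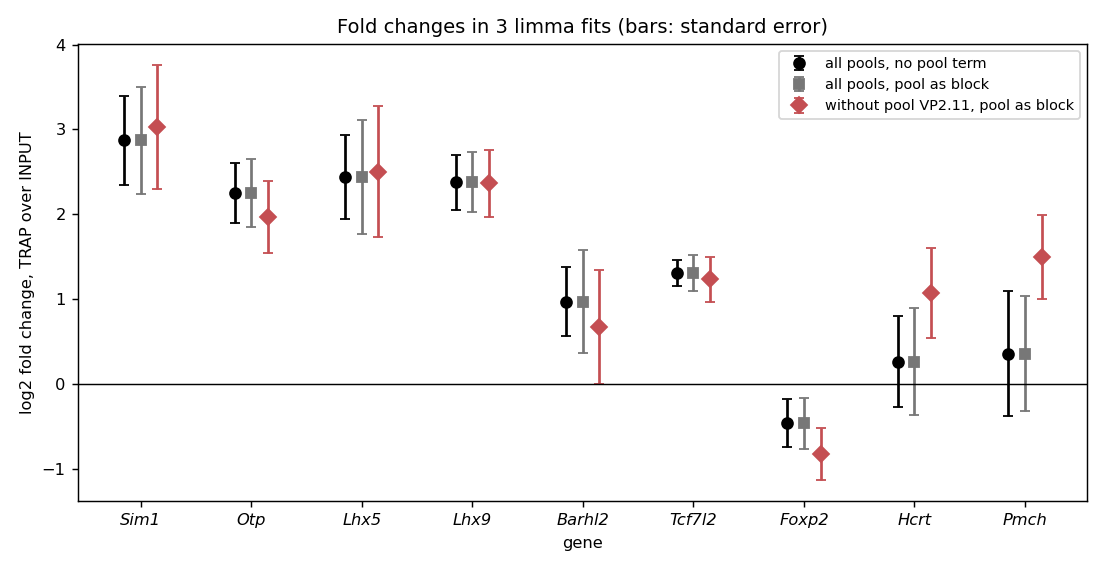
Log2 fold change of TRAP over INPUT (y axis) for each gene, with bars of 1 standard error, in 3 limma fits, namely all pools without a pool term, all pools with the pool as block, and with VP2.11 left out and the pool as block. Leaving out VP2.11 moves Pmch from 0.36 to 1.50 and Hcrt from 0.27 to 1.07 and changes Lhx9 and Tcf7l2 little.

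Levels can be compared between genes only per length of exon. Per kilobase, TRAP levels ran in the order Tcf7l2 (37.8 CPM per kb), Pmch (11.3), Foxp2 (4.77), Hcrt (3.57), Otp (3.46), Lhx9 (1.28), Lhx5 (1.09), Barhl2 (0.946) and Sim1 (0.443). Of neighbours in this order, only Tcf7l2 and Pmch, and Otp and Lhx9, had ranges over the 4 TRAP libraries that did not overlap. In INPUT the order was Tcf7l2 (15.3 CPM per kb), Pmch (7.71), Foxp2 (6.39), Hcrt (2.77), Otp (0.650), Barhl2 (0.449), Lhx9 (0.249), Lhx5 (0.216) and Sim1 (0.070). There the neighbours without overlap were Hcrt and Otp, and Otp and Barhl2.

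Other genes listed as hypothalamic transcription factors went both ways. Of 24 listed, 10 were tested and 14 were without a row. Beside the counts of this and the next lists stand the shares of all genes called. These were 23.2% higher and 24.8% lower in the plain fit and 15.4% and 16.8% in the pool-blocked fit. Of the 10, the plain fit called 5 higher and 4 lower in TRAP and the pool-blocked fit 5 and 3, and their median was 0.62 on the log2 scale. Fezf1, a ventromedial hypothalamic gene, rose by 2.77 and Nhlh2, a gene of hypothalamic peptide neurons, by 2.25. Nkx2-2, Six3 and Isl1 fell by 3.64, 1.97 and 1.75 on the log2 scale. INPUT holds the mRNA of all cells, and which cells carried the genes of this and the next lists was not tested. Lhx1 (1.62) and Arnt2 (1.14), the dimerisation partner of Sim1, were called in both fits and are named after their values were seen.

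Of 16 hypothalamic neuropeptide precursors listed, 10 were tested. The plain fit called 1 higher and 7 lower and the pool-blocked fit 1 and 5, and their median was -1.31 on the log2 scale. With the trend on exon length taken out these counts were 3 and 4 in the plain fit and 2 and 4 in the pool-blocked fit, with a median of -0.75, and without VP2.2 the median was -0.77. The gene that was higher, by 2.15, was Trh, which encodes the precursor of thyrotropin-releasing hormone, with differences of 2.95, 0.91, 3.13 and 1.62. Pomc, Npy, Tac2, Gal and Cartpt were lower by -2.75, -2.47, -2.12, -1.72 and -1.19. Pomc varied by pool, from -0.09 in VP1.6 to -5.42 in VP2.11. Avp and Oxt, the genes of the paraventricular hormones, were among the 6 genes without a row.

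Among thalamic and habenular genes, 7 of 12 were tested. The plain fit called 3 higher and 0 lower and the pool-blocked fit 2 and 0, and their median was 0.70. The median was 0.33 with library weights and 0.36 with the trend on exon length taken out, and 1 gene was called lower with library weights and, in either fit, without VP2.11. Rora, a nuclear receptor gene of thalamic neurons, rose by 1.66 and Ntng1, an axon guidance gene, by 1.34. Gbx2 stood at -3.30, -0.78, -1.82 and 2.41, so VP2.11 alone had it higher in TRAP.

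The receptors for the 2 peptides showed no called change. Hcrtr1, Hcrtr2 and Mchr1 had log2 fold changes of 0.37, 0.30 and -0.03, and 0 of 3 passed in limma, also at an unadjusted p under 0.05. Of 4 genes that orexin or MCH neurons are known to coexpress, Nptx2 was higher by 1.55, Pdyn and Cartpt were lower by -1.16 and -1.19, and Tacr3 stood at -0.22.

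Genes whose products work with these factors were counted too. Of 9 LIM cofactor and LIM-only genes, 2 were lower in TRAP in both fits, near the share of all genes called lower, and 0 were higher. These 2 were Lmo2, lower by -1.51, and Lmo4, by -1.13. Of 13 genes of the TCF/LEF family and its partners, 3 were higher and 3 lower in the plain fit, near the shares of all genes (23.2% and 24.8%). The pool-blocked fit called 1 each way, namely Ctnnb1, which encodes β-catenin, higher by 0.98, and Tcf7, lower by -2.66. Foxp4 was higher by 1.48, while Foxp1 stood at -0.67, with limma's adjusted p-values at 0.045 and 0.080.

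**Figure D4:**
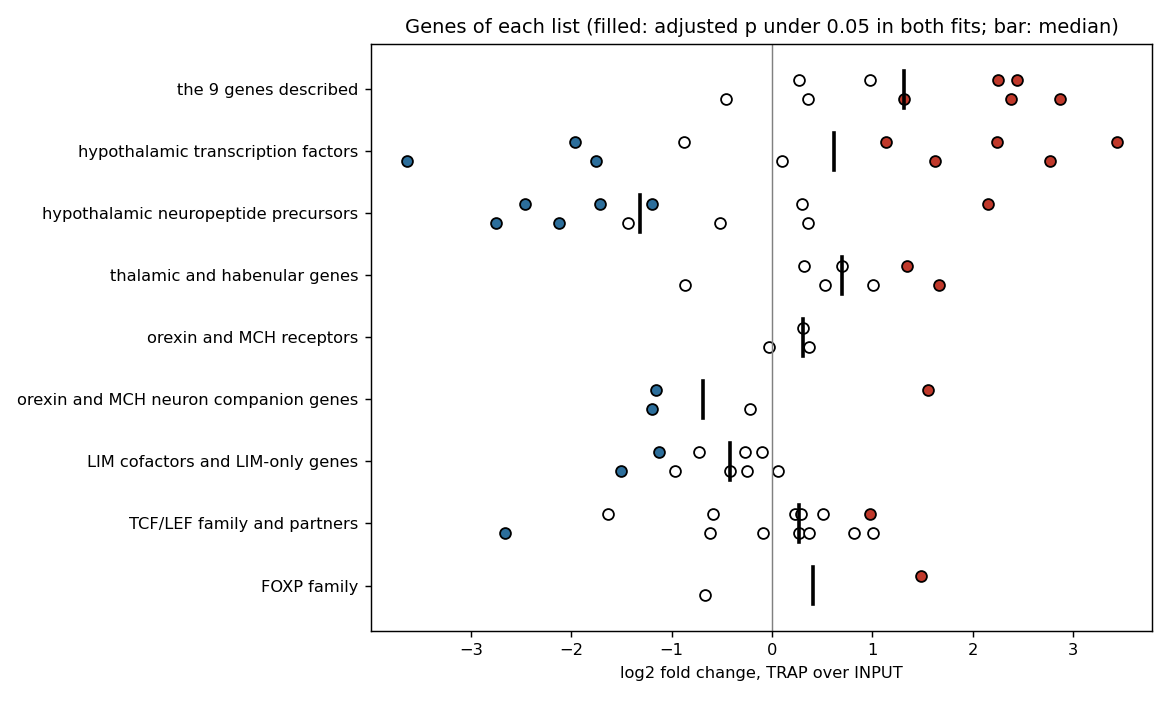
Log2 fold change of TRAP over INPUT (x axis) of the genes tested in each list (rows), with filled points for an adjusted p under 0.05 in both fits, red higher and blue lower, and a bar at the median. The 9 genes described have a median of 1.31, the neuropeptide precursors one of -1.31.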

How the data were processed

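RNA of 4 VP pools was sequenced as TRAP and INPUT libraries (8 in all). By the labels and methods, the authors used STAR 2.5.1a for alignment to Ensembl's GRCm38, kept uniquely mapped reads for the counts per gene, scaled libraries by TMM and fitted limma, and the deposited values are log2 CPM per gene and library. The deposited table also holds the authors' fold changes, p-values and a transcript count, which were not used. The methods call the second fraction unbound in 1 place, whereas the labels say Input. Read counts were not used here. In 3 libraries (both of VP2.11 and the INPUT of VP1.6) the values were given to 3 significant digits only. Of 14398 entries, 45 repeated a gene with equal values and were left out.

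A gene had to exceed 1 CPM in 3 or more libraries, and the 14249 that did were tested with limma 3.58.1 in R 4.3.3 (lmFit, then eBayes with a trend) on the log2 values, with the fraction alone (the plain fit) and beside it with the pool as a block (the pool-blocked fit). Adjusted p-values follow Benjamini and Hochberg. Both fits were run on simulated data with opposed errors within pools, where the plain fit called more unchanged genes than the pool-blocked fit, so its p-values are too small on such data. Pools pair the libraries, since both come from 1 homogenate. In the check of the pairing, same-pool libraries deviated from their fraction means with a mean r of -0.661 across genes, so the deviations are opposed. The mean r of 0.222 for different pools is no separate comparison. It largely follows from the first value, because the deviations of a gene cancel out within a fraction. Pools are separate tissue pools of the same cross, and p-values cover the spread between them. Depth came from whole-read steps in 2 pools, with reads per gene approximate. Positions and exon lengths are from GENCODE M21 (GRCm38), and promoters from RefSeq.

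All 9 genes are named, with genes of each list called in both fits (at most 6 per list with the largest change) and, for each of the 9, the 2 genes with the nearest within-pool differences. An item that this rule names is not reported here. The genes and lists were chosen with earlier results of these data known. Alternatives were the pool block, library weights, filters, log2(CPM + 1), median centring, quantile normalization, removal of the trend with exon length, no trend in eBayes and each pool left out.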

Additional observations from a re-analysis of the deposited data

Results flagged for a closer look

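In the 27 sets of 4 values examined (the TRAP levels, INPUT levels and within-pool differences of the 9 genes), 1 had a value far from the other 3 by Dixon's criterion, where chance gives about 1.35. This was Lhx9 in TRAP, where VP2.11 had 4.24 log2 CPM and the rest lay between 3.25 and 3.38.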

How the results depend on the processing

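Lhx9, Otp, Tcf7l2 and Sim1 stayed higher in TRAP and past the threshold in every alternative in which they were tested, as did Lhx5 but for 1 case. The size moved more: with log2(CPM + 1) and with quantile normalization it was 1.585 and 4.09 for Sim1 and 1.29 and 3.74 for Lhx5. Sim1, Lhx5 and Barhl2 were not tested under the stricter filter (over 1 CPM in 4 libraries, mean log2 CPM over 1), where 3 of the 9 genes were called higher. With each pool left out in turn, with or without the block, the log2 fold change ran from -0.23 to 1.07 for Hcrt, with -0.07 without VP2.2, from -0.39 to 1.50 for Pmch, with -0.24 without VP1.6, from 2.00 to 2.84 for Lhx5 and from -0.82 to -0.18 for Foxp2. Lhx5 lost its call without VP2.6 with the block (2.00, limma's adjusted p 0.079). Library weights brought Pmch past the threshold at 1.64, and at 1.397 with the block as well, and Barhl2 at 1.07. Barhl2 also passed with quantile normalization (1.91), with the exon length trend taken out (1.25) and with no trend in eBayes (0.97). Foxp2 was lower in TRAP with library weights (-0.95), with the replicate block and weights (-0.87) and with the exon length trend taken out (-1.002 with and without the block), which makes 1 gene lower in place of 0 there and without VP2.11. The causes were not tested. Log2 fold changes over all genes had a Spearman correlation of 0.412 with exon length. Of all genes, the pool block moved the share called lower from 24.8% to 16.8% and the share called higher from 23.2% to 15.4%. The next counts are for the 56 genes tested in the lists other than the 9 genes described and the cell type markers. With the pool block, the number of these called lower went from 18 to 12 and the number called higher from 13 to 11. With each pool left out, the number lower ran from 11 to 21, with 11 without VP2.6 under the block. With all pools and equal weights the block changed no call of the 9 genes. It removed the calls of Lhx5 without VP2.6, of Hcrt and Foxp2 without VP2.11, and of Barhl2 with library weights or the exon length trend taken out. Signs of the 4 within-pool differences alone allow no exact p under 0.125. Low read numbers limit Sim1, Lhx5 and Barhl2 most, and not in INPUT alone, and Hcrt also rests on few reads. In VP2.2, Lhx5 had about 26 reads in TRAP and 33 in INPUT, and Barhl2 about 18 and 53. Depth is known for VP2.2 and VP2.6 only.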

Other observations

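The genes whose within-pool differences lay nearest to those of each gene were sought among 12803 candidates, as the Euclidean distance over 4 pools, which share their libraries. For Otp the nearest was Lgr5, an R-spondin receptor gene, at a distance of 0.215 and with differences of 1.69, 2.18, 2.36 and 3.17. Lhx9 lay nearest to Chl1 (0.415), a cell adhesion gene, and Tpp2 (0.554), and Tcf7l2 nearest to Pex6 (0.074) and Opa1 (0.080). The calretinin gene Calb2 (0.983) and Trh (1.04) came nearest to Lhx5, and Calb2 differed by 2.43, 1.49, 2.82 and 2.41.

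Cplx3, a complexin gene, lay nearest to Pmch (1.06) with 1.84, 0.56, 2.17 and -2.76, followed by Ern2 (1.38). Pabpc5 (0.669) and Zfp72 (0.743) came nearest to Hcrt, the first with 1.41, 0.91, -0.02 and -2.53. Fam53b (0.169) and Kctd8 (0.249) were nearest to Foxp2, Safb (0.218) and Fkbp11 (0.327) to Barhl2, Rnf17 (0.560) came second for Otp, and Sim1 had Abi3bp (1.22) and Il1rapl2 (1.38).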
